A study of Rattus norvegicus with 6 samples.

Results

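Chemokine receptors of circulating leukocytes were measured in whole blood of rats after experimental stroke. The receptors were Cxcr4, Cxcr2, Cxcr3, Cxcr5, Ccr1, Ccr2, Ccr6 and Cx3cr1, and every probe set that the array annotation gives to 1 of these 8 genes was taken, which gave 11 of the 31042 probe sets tested. The MCAO group was 3 male Sprague-Dawley rats, 8 weeks of age, in which a coated thread closed the origin of the left middle cerebral artery and was later withdrawn, and these 3 were retained for their infarct size out of more rats operated. The sham group was 3 rats of the same strain, sex and age in which an uncoated thread was passed into the same vessel. Both groups had the common and external carotid arteries tied under isoflurane. At 24 h of reperfusion blood was drawn from the heart, and each rat gave 1 array. No filter on low values was set, so all 11 probe sets were tested.

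Chemokines are small secreted proteins that guide leukocytes, and their receptors are membrane proteins that signal through Gi-type G proteins to the actin cytoskeleton. Each receptor type marks certain cells: Cxcr2, a receptor for neutrophil-attracting chemokines, and Ccr1, a receptor for Ccl3 and Ccl5, are used by neutrophils and monocytes, Ccr2, the receptor for Ccl2, and Cx3cr1, the receptor for fractalkine, by monocyte subsets, Cxcr3, a receptor for interferon-induced chemokines, by activated T and NK cells, Cxcr5, the receptor for Cxcl13, by B cells and follicular T cells, and Ccr6, the receptor for Ccl20, by B cells and some T cells. Cxcr4, the receptor for Cxcl12, is carried by most leukocytes and holds neutrophils and immature cells in the marrow. After a stroke, neutrophils and monocytes leave the blood for the injured brain, and lymphocyte numbers in the blood are known to fall. Cxcr2, Ccr1, Ccr2 and Cx3cr1 are called myeloid receptors here and Cxcr3, Cxcr5 and Ccr6 lymphoid receptors, although some lymphocytes also carry members of the myeloid set (Cx3cr1 on NK cells, for example).

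No receptor was called different between the MCAO and sham groups. By the Rank Products FDR the nearest was 1 of the 3 probe sets of Cxcr4, 1373661_a_at, with a lower mean in MCAO rats (FDR 0.0857), and by limma the nearest was Cxcr5 at 1369911_at (unadjusted p = 0.103). By Rank Products, the method of the study, 0 of the 11 probe sets passed a false discovery rate (FDR) of 0.05 in either direction, whereas 0.606% of all probe sets were called lower in the MCAO group and 0.129% higher. By limma 0 of the 11 passed an adjusted p of 0.05 and 0 had an unadjusted p under 0.05 (0.103 to 0.889), and over all probe sets limma called 0 (0.0%), with 1150 at an unadjusted p under 0.05. In 0 of the 11 did all MCAO rats lie on 1 side of all sham rats, whereas over all probe sets the MCAO rats lay wholly below the sham rats at 3.6% and wholly above at 4.82%.

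The deposited values are log2 values that were contracted strongly between arrays by the normalization, and the median range of a probe set over the 6 rats was 6.551 millionths of a log2 unit. Differences and standard deviations (SD) are therefore given in millionths of a log2 unit on this scale, and are not fold changes of the raw signal. The 11 receptor probe sets had ranges between 4.825 and 6718 millionths. Values of Hbb, a globin chain of red cells, averaged 14.21, and S100a9, a neutrophil protein, averaged 9.07, whereas 9 genes of heart muscle averaged between 5.31 and 5.89, near the median of 5.56 over all probe sets. No estimate of background accompanies the values, and the level alone does not show that a receptor near 5.56 was expressed. In blood RNA, fewer cells of a type and less RNA per cell cannot be told apart.

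**Figure D1:**
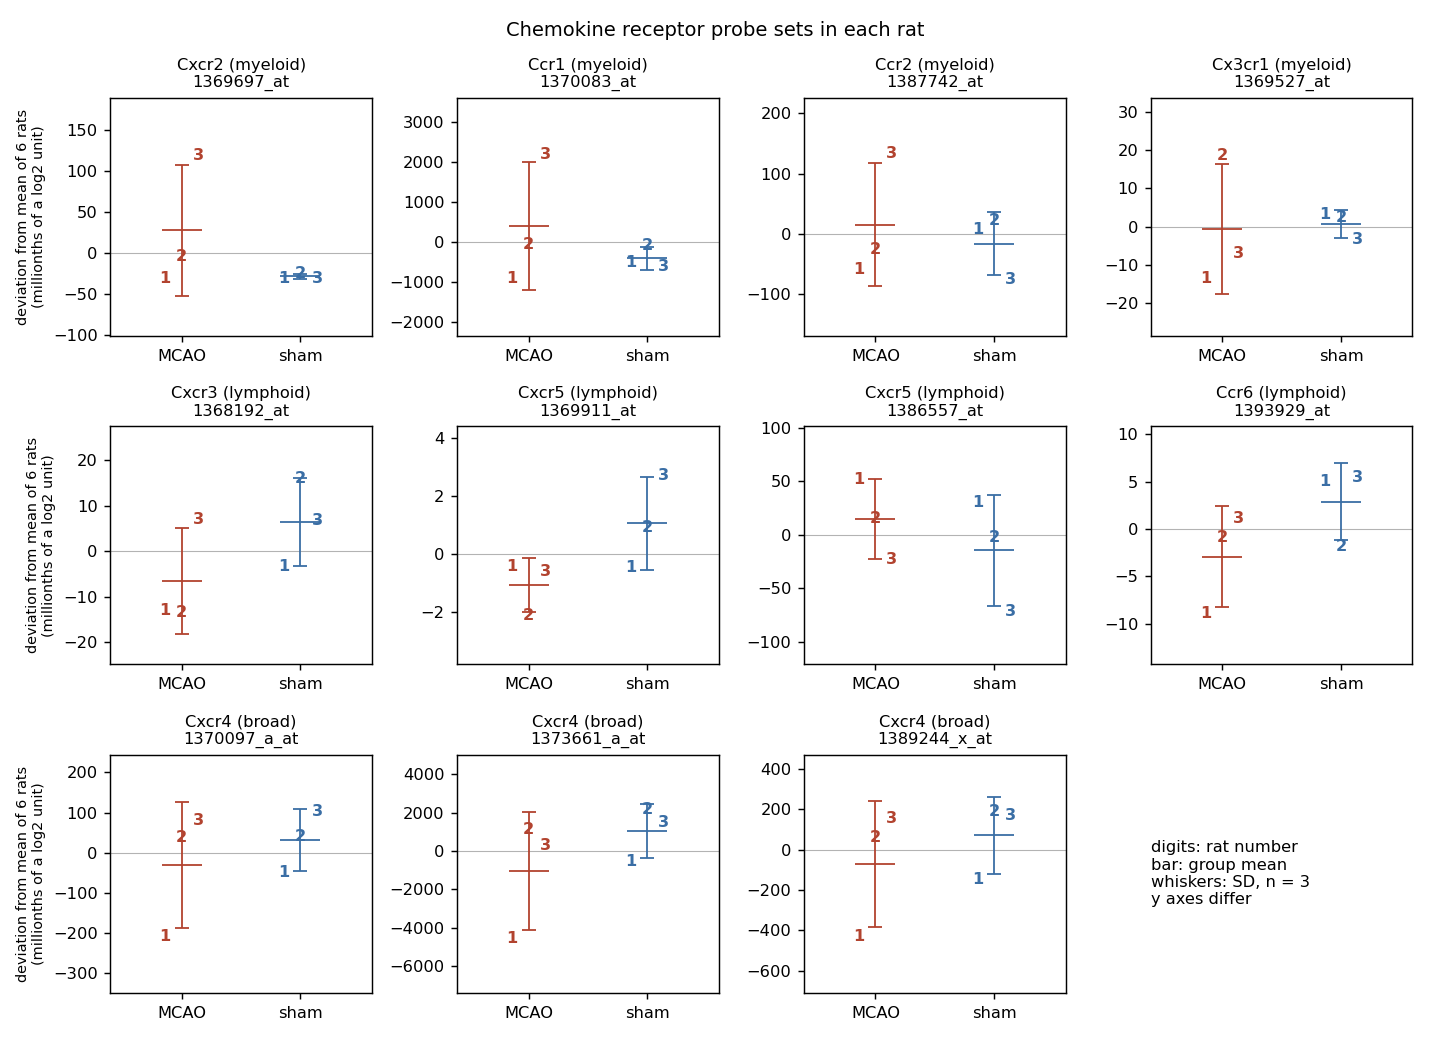
Deviation of each rat from the mean of the 6 rats (y axis, millionths of a log2 unit) at the 11 receptor probe sets, with MCAO rats left of sham rats, digits for the rat numbers, and bars and whiskers for the mean and SD (n = 3 each). The y axes differ between panels, the groups overlap in every panel, and MCAO rat 1 is the lowest at 7 of the 11 probe sets.

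Cxcr4, the receptor for Cxcl12, was measured by 3 probe sets, and its mean was lower in the MCAO group at each. Probe set 1373661_a_at had log2 values of 6.164035, 6.169698 and 6.16889 in MCAO rats 1 to 3, against 6.168056, 6.170753 and 6.170086 in sham rats 1 to 3. MCAO rat 1 was the lowest, sham rat 1 came next, and sham rats 2 and 3 were above all MCAO rats, so the groups overlapped through sham rat 1. The log2 difference (MCAO minus sham) was -2090 millionths (SE 1830, 95% interval -6951 to 2770) with an FDR of 0.0857 by Rank Products for a lower value and an exact permutation p of 0.4 (two-sided, where 3 against 3 rats cannot go below 0.1). It held rank 297 among the 31042 probe sets ordered by the Rank Products statistic for a lower value, of which 188 were called.

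Cxcr4 was not called with all rats, and its FDR depended on single rats. At 1373661_a_at the FDR was 0.0397, under the threshold, without MCAO rat 2, and 0.0508 without MCAO rat 3. It was 0.302 without MCAO rat 1, 0.138 without sham rat 1, 0.742 without sham rat 2 and 0.643 without sham rat 3. The difference was -337.4 millionths without MCAO rat 1, against -2090 with all rats.

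The other probe sets of Cxcr4 followed the same rats at smaller size. Probe set 1370097_a_at had 6.130744, 6.130991 and 6.131033 in MCAO rats 1 to 3, against 6.130903, 6.130993 and 6.131057 in sham rats 1 to 3, a difference of -61.44 millionths (SE 94.71). Probe set 1389244_x_at had 7.022248, 7.022739 and 7.022832 in MCAO rats, against 7.022529, 7.022866 and 7.022847 in sham rats, a difference of -141.1 millionths (SE 198.9), and -878 after quantile normalization. MCAO rat 1 was the lowest and sham rat 1 the next in all 3 probe sets, and without MCAO rat 1 the difference turned to 27.92 millionths at 1370097_a_at and 37.99 at 1389244_x_at. Over the 6 rats the 3 probe sets correlated with Pearson's r between 0.923 and 0.974, as a description. Of these, 1373661_a_at and 1389244_x_at were designed on the same transcript sequence, and the suffix x marks probes that can match other transcripts.

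The sequence before the start site is shown for Cxcr4, the receptor with the lowest Rank Products FDR, and for Ccr1 and Cxcr2, whose values followed each other most closely over the rats. The RefSeq promoter table (build GRCr8) held 7 of the 8 receptors, and not Cxcr5. Each line gives the 250 bases before the start site, 5′ to 3′ on the strand of the gene, with the motifs in capitals wherever they match on either strand. The motifs searched were the TATA box with the letters TATAAA, the GC box with the letters GGGCGG, the PU box of ETS factors with the letters GAGGAA, and the CCAAT box.
Cxcr4 (chr13:42634289-42634538, minus strand): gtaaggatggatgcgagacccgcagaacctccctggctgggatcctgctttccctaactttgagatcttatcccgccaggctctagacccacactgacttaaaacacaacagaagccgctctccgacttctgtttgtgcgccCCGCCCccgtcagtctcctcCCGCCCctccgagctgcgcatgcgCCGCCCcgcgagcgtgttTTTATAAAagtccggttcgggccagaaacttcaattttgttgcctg
Ccr1 (chr8:132439267-132439516, minus strand): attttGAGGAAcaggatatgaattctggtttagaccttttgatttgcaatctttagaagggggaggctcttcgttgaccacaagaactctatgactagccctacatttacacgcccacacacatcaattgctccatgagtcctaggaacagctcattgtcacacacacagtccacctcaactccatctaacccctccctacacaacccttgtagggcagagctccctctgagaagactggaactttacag
Cxcr2 (chr9:83178395-83178644, plus strand): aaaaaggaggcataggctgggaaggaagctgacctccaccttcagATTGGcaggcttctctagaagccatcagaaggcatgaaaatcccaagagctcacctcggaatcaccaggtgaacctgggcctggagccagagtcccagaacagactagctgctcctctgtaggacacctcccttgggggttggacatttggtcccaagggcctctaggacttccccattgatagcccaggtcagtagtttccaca

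The Cxcr4 window held 3 GC box matches, at 108, 88 and 64 bases before the start site, and the TATA box on both strands, where the 2 matches overlap by 4 bases and begin 46 and 44 bases before it. The Ccr1 window held 1 PU box at 245 bases before the start site, and the Cxcr2 window held 1 CCAAT box on the other strand at 205 bases. Of 33469 promoters of this length, 30.5% held the GC box, 12.9% the TATA box, 23.3% the PU box and 34.0% the CCAAT box, so each match is common. These are matches of letters only.

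Among the myeloid receptors, Ccr1, Cxcr2 and Ccr2 had higher means in the MCAO group, and in each of them this came with MCAO rat 3. Ccr1, a receptor for Ccl3 and Ccl5, had 5.793287, 5.794143 and 5.796385 in MCAO rats 1 to 3, against 5.793708, 5.794134 and 5.793588 in sham rats 1 to 3. MCAO rat 3 stood above the rest, MCAO rat 1 was the lowest of all, and MCAO rat 2 lay within 10 millionths of sham rat 2. The difference was 795.3 millionths (SE 882.8, 95% interval -1549 to 3139, exact permutation p = 0.6), with an FDR of 0.457 for a higher value. Without MCAO rat 3 it turned to -94.5 millionths.

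Cxcr2, the receptor for the neutrophil chemokines Cxcl1 and Cxcl2 in rodents, had 5.564726, 5.564753 and 5.564876 in MCAO rats 1 to 3, against 5.564726, 5.564732 and 5.564726 in sham rats 1 to 3. MCAO rats 3 and 2 were the highest, while MCAO rat 1 and sham rats 1 and 3 lay together at the lowest value. The SD was 79.74 millionths over MCAO rats and 3.573 over sham rats, and the difference was 56.48 millionths (SE 43.36, 95% interval -58.66 to 171.6, exact permutation p = 0.4). Without MCAO rat 3 it was 11.09 millionths. Cxcr2 lay at the median level of the array, so these values cannot show by themselves how much of its transcript was present.

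Ccr2, the receptor by which monocytes leave the marrow, had 5.789772, 5.789805 and 5.789964 in MCAO rats 1 to 3, against 5.789838, 5.789853 and 5.789755 in sham rats 1 to 3. MCAO rat 3 was the highest and sham rat 3 the lowest, and MCAO rats 1 and 2 lay below sham rats 1 and 2. The difference was 31.61 millionths (SE 62.63, exact permutation p = 0.8), and it turned to -26.84 without MCAO rat 3 and to -6.13 after quantile normalization.

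Cx3cr1, the fractalkine receptor of patrolling monocytes and NK cells, had 5.729578, 5.729611 and 5.729585 in MCAO rats 1 to 3, against 5.729595, 5.729594 and 5.729589 in sham rats 1 to 3. All sham rats lay inside the span of the MCAO rats, whose SD was 17.05 millionths, against 3.584 in sham rats. The difference was -1.399 millionths (SE 9.467, 95% interval -26.54 to 23.74, exact permutation p = 0.9), and its sign turned without MCAO rat 1 (5.044) or MCAO rat 3 (1.823), and after quantile normalization (27.31).

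Among the lymphoid receptors, Cxcr3 and Ccr6 had lower means in the MCAO group, and the probe sets of Cxcr5 went opposite ways. Cxcr3, a receptor of activated T and NK cells, had 5.850458, 5.850457 and 5.850478 in MCAO rats 1 to 3, against 5.850467, 5.850487 and 5.850478 in sham rats 1 to 3. MCAO rats 1 and 2 were below every sham rat, and MCAO rat 3 lay among them. The difference was -12.94 millionths (SE 8.233, 95% interval -34.8 to 8.918, exact permutation p = 0.3), and -49.33 after quantile normalization.

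Ccr6, which leads B cells and T helper 17 cells to Ccl20, had 6.14853, 6.148538 and 6.14854 in MCAO rats 1 to 3, against 6.148544, 6.148537 and 6.148544 in sham rats 1 to 3. Sham rats 1 and 3 were above all MCAO rats and sham rat 2 was among them. The difference was -5.806 millionths (SE 3.648, 95% interval -15.49 to 3.881, exact permutation p = 0.3), and it stayed negative whichever rat was left out (-8.157 to -2.791), and was -49 after quantile normalization.

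Cxcr5, the follicle-homing receptor of B cells, was measured by 2 probe sets that disagreed. At 1369911_at the mean was 5.525871 in MCAO rats and 5.525873 in sham rats, with a difference of -2.103 millionths (SE 1.033, exact permutation p = 0.2) and SDs of 0.928 millionths in MCAO rats and 1.592 in sham rats. At 1386557_at the values were 7.411136, 7.4111 and 7.411061 in MCAO rats 1 to 3, against 7.411114, 7.411082 and 7.411013 in sham rats 1 to 3, with a difference of 29.41 millionths (SE 34.76, exact permutation p = 0.5). That difference was 0.9133 without sham rat 3, 10.91 without MCAO rat 1, 48.36 without MCAO rat 3, 51.64 without sham rat 1 and 6.169 after quantile normalization. MCAO rat 1 was the highest of all 6 rats at the brighter probe set, the only receptor probe set where that was so, and sham rat 3 was the lowest there and the highest at 1369911_at. The correlation between the 2 over the 6 rats was -0.705, so the direction of Cxcr5 depends on the probe set read.

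**Figure D2:**
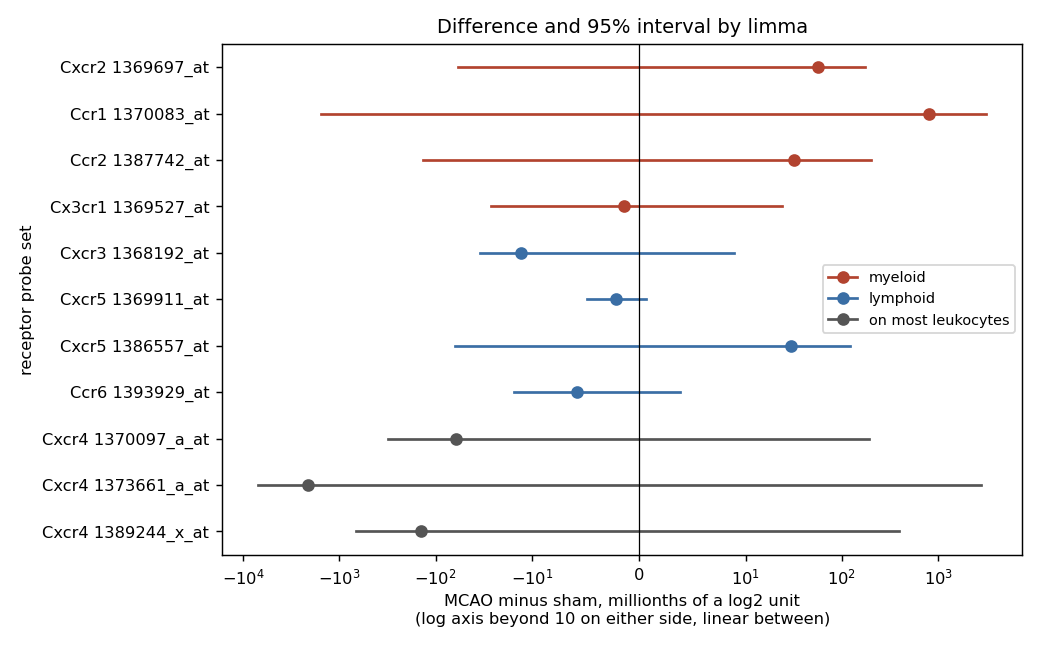
Log2 difference, MCAO minus sham, in millionths of a log2 unit (x axis, logarithmic beyond 10 on either side of 0 and linear between) with its 95% interval by limma, for the 11 receptor probe sets (rows), coloured by the cells that carry the receptor. Every interval includes 0, from the narrowest at Cxcr5 1369911_at (-4.845 to 0.6397) to the widest at Cxcr4 1373661_a_at (-6951 to 2770).

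With 1 probe set per gene, the mean was higher in the MCAO group for 3 of the 4 myeloid receptors (Cxcr2, Ccr1 and Ccr2) and for 1 of the 3 lymphoid receptors (Cxcr5), where 53.4% of all probe sets had a higher mean in that group. The median difference was 44.04 millionths over the myeloid receptors and -5.806 over the lymphoid ones, beside 0.06717 over all probe sets. Centring each array on its median added 29.78 millionths to the difference of every probe set, which gave 73.83 for the myeloid median and 23.98 for the lymphoid one and turned the sign of Cxcr3, Cx3cr1, Ccr6 and Cxcr5 at 1369911_at. Without MCAO rat 3 the myeloid median turned to -12.51 millionths, and the lymphoid one was -7.808. The probe sets differ in how far the normalization contracts them, and their levels are not comparable between genes, so no order of the receptors is read from the sizes. In level, the myeloid receptors averaged between 5.5648 and 5.7942 and the lymphoid ones, over all their probe sets, between 5.5259 and 7.4111.

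Rat by rat, Ccr1 and Cxcr2 had similar orders. Ccr2 shared MCAO rat 3 as the highest with them but had sham rat 3 as the lowest, and Cx3cr1 did not share their order. MCAO rat 3 was the highest at 3 of the 4 myeloid receptors, against 15.5% of all probe sets, and MCAO rat 1 the lowest at 3 of the 4, against 19.5%. Ccr1 and Cxcr2 correlated over the 6 rats with Pearson's r of 0.978, Ccr1 and Ccr2 with 0.925 and Cxcr2 and Ccr2 with 0.868, whereas Cx3cr1 gave -0.063 with Ccr1. Mean ranks (1 lowest, 6 highest) of the myeloid receptors were 1.25, 4.75 and 5 in MCAO rats 1 to 3, against 3.50, 4.25 and 2.25 in sham rats 1 to 3. Those of the lymphoid receptors were 3, 2.67 and 3.67 in MCAO rats, against 4.33, 3.67 and 3.67 in sham rats. The correlations are descriptions over 6 rats, and the points share arrays and their normalization. MCAO rat 3 lay farthest from the mean of the 6 rats at Cxcr2, Ccr1 and Ccr2 (119, 2177 and 132.7 millionths). Their correlations lean on that rat, and values without it were not computed.

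Markers of blood cell types moved over the same rats. MCAO rat 3 was the highest at 10 of 12 neutrophil markers and 10 of 14 monocyte markers, as it was at Ccr1, Cxcr2 and Ccr2. It was also the highest at 7 of 10 platelet markers, 17 of 34 signalling genes and 6 of 12 genes that switch the receptors off. Among lymphocyte lists it was the highest at 5 of 14 NK, 0 of 11 B and 0 of 16 T cell markers, beside 15.5% of all probe sets. Csf3r, the receptor for granulocyte colony-stimulating factor, had 6.359646, 6.376948 and 6.425873 in MCAO rats 1 to 3, against 6.376293, 6.373119 and 6.373682 in sham rats 1 to 3, and was called higher in the MCAO group (FDR 0.0308). Il1r2, the decoy receptor for interleukin 1, was called higher as well (FDR 0.0259), with 5.742752, 5.743012 and 5.743516 in MCAO rats, against 5.742553, 5.742706 and 5.742565 in sham rats. It was the 1 of the 12 neutrophil markers where the groups did not overlap. Over all probe sets MCAO rats lay wholly above sham rats at 4.82%. S100a9 and Lrg1 were called lower (FDR 0.0430 and 0.0337) although their means were higher in the MCAO group, and at both MCAO rat 1 was the lowest and MCAO rat 3 the highest. The neutrophil list held 9 of 12 genes with a higher mean in MCAO rats, beside 53.4% of all probe sets. Its mean level was 6.3574, 6.3668 and 6.3850 in MCAO rats 1 to 3, against 6.3675, 6.3701 and 6.3661 in sham rats 1 to 3. The monocyte list, with 7 of 14 genes higher, averaged between 6.4633 and 6.4696 in MCAO rats and between 6.4653 and 6.4686 in sham rats. No marker had a value of 0. Marker lists were chosen with earlier results of these data known, so their counts of calls are not independent evidence. Of the 12 neutrophil markers 4 were called with all rats, 2 lower and 2 higher, beside 0.606% of all probe sets called lower and 0.129% higher. The count was 0 without MCAO rat 2, 1 without MCAO rat 1, sham rat 2 or sham rat 3, 2 without sham rat 1, and 4 without MCAO rat 3. The part of neutrophil and monocyte numbers in the receptor values was not tested.

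MCAO rat 1 was the lowest at 8 of 11 B cell markers and 10 of 16 T cell markers, beside 19.5% of all probe sets. Among the receptors it was the lowest at the 3 Cxcr4 probe sets and at Ccr6, and also at the myeloid receptors Cxcr2, Ccr1 and Cx3cr1. It was also the lowest at 8 of 14 NK cell, 7 of 14 monocyte and 5 of 12 neutrophil markers and at 18 of 34 signalling genes. Of the B cell markers Ms4a1 (CD20), Cr2 (a complement receptor) and Fcmr (the IgM receptor) were called lower and 0 higher, with differences of -5086, -833 and -4847 millionths, and of the T cell markers Cd3g and Tcf7 were called lower and 0 higher (-3120 and -6034). Spn (CD43), from the monocyte list but also carried by lymphocytes, and Prf1 (perforin), of the NK list, were called lower too (-3186 and -4888). Over all probe sets 0.606% were called lower and 0.129% higher. Cr2 and Cd3g are among the genes that the study reported from these same rats, and the lists were chosen with earlier results known. These counts are therefore not independent evidence. Mean ranks of the T cell markers were 1.81, 4.25 and 2.69 in MCAO rats 1 to 3, against 3.06, 5.06 and 4.12 in sham rats 1 to 3, and those of the Cxcr4 probe sets were 1, 3.33 and 4 in MCAO rats, against 2, 5.33 and 5.33 in sham rats. The lowest rat was MCAO rat 1 and the highest sham rat 2 in both, jointly with sham rat 3 for Cxcr4. These ends were not particular to T cell markers. The NK cell list had the same ends (2.21 and 5.29), and the B cell list had MCAO rat 1 the lowest (1.36) and sham rat 3 the highest (5). The monocyte list had MCAO rat 1 the lowest too (2.07) but MCAO rat 3 the highest (5.29). The mean level of the B cell list was 6.3102 to 6.3114 in MCAO rats and 6.3114 to 6.3124 in sham rats, with 10 of 11 means lower in the MCAO group, and that of the T cell list 6.3262 to 6.3279 in MCAO rats and 6.3274 to 6.3286 in sham rats, with 13 of 16 lower. Means were lower also at 10 of 14 NK cell and 10 of 10 erythroid markers, and higher at 9 of 10 platelet markers. Over all probe sets 53.4% had a higher mean. Without sham rat 2 or sham rat 3, 0 B, T or NK cell markers were called, and without MCAO rat 1, 0 T or NK cell markers. The monocyte list gave 0 calls without sham rat 1 or sham rat 3 and 4 without MCAO rat 3, and the T cell list 1 without sham rat 1 and 4 without MCAO rat 2. The NK cell list also gave 0 without MCAO rat 2 or sham rat 1, and 3 without MCAO rat 3, and the B cell list gave 2 without MCAO rat 2 or sham rat 1. Of 10 erythroid markers Tfrc, the transferrin receptor, was called lower, and of 10 platelet markers Rab27b, which acts in granule release, was called higher. The erythroid list gave 0 calls without sham rat 2 or sham rat 3 and 2 without MCAO rat 3, and the platelet list 0 without MCAO rat 1, MCAO rat 2 or MCAO rat 3 and 2 without sham rat 3. The part of lymphocyte numbers in the Cxcr4 values was not tested.

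**Figure D3:**
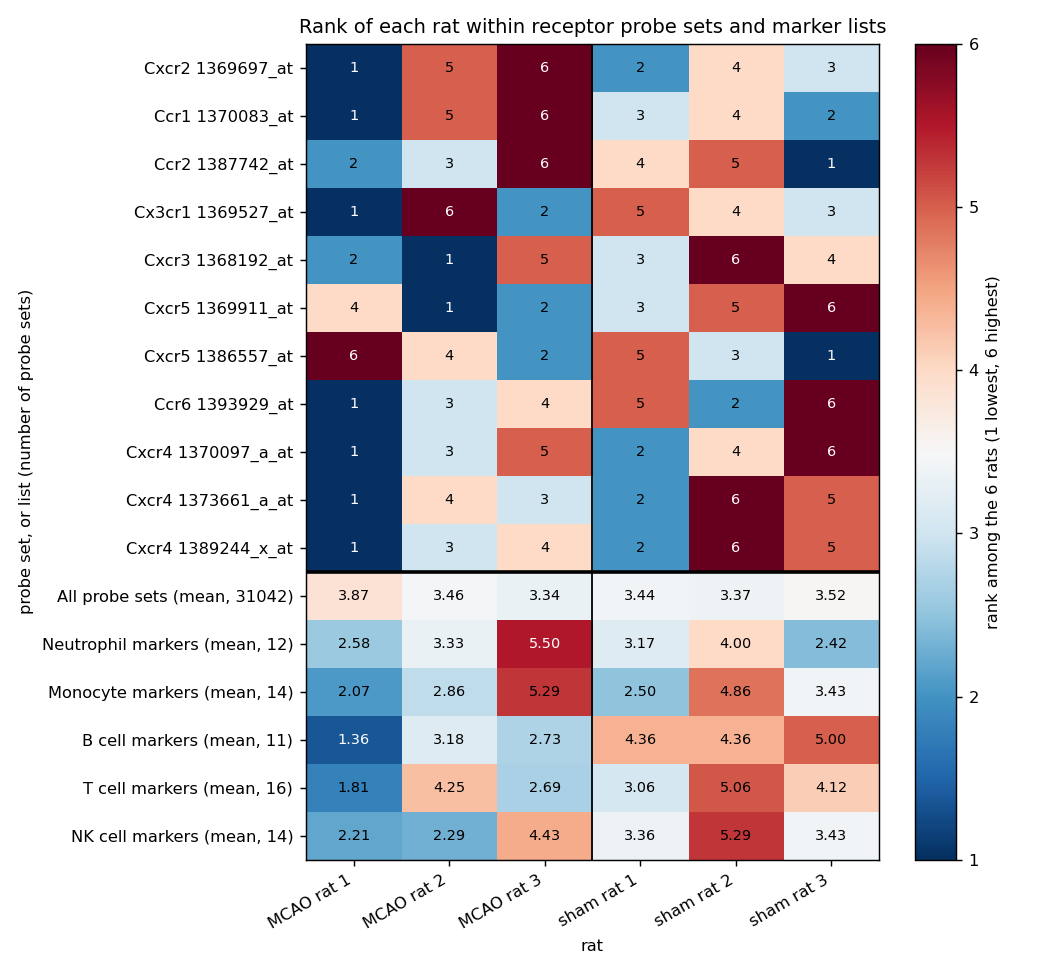
Rank of each rat (columns, MCAO left of sham) from 1, lowest and blue, to 6, highest and red, at each receptor probe set, and below the line the mean rank over all 31042 probe sets and over 5 lists of cell type markers, with the number of probe sets in parentheses. MCAO rat 3 has rank 6 at Cxcr2, Ccr1 and Ccr2 and mean ranks of 5.50 and 5.29 over neutrophil and monocyte markers. MCAO rat 1 has rank 1 at all Cxcr4 probe sets and at Cxcr2, Ccr1, Cx3cr1 and Ccr6, and 1.36 over B cell markers.

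Of the other chemokine receptors, 9 of 15 listed were measured and 0 were called in either direction. Cxcr1, the other receptor for neutrophil chemokines, had a difference of 2.116 millionths (SE 4.227), Ackr1, the scavenging receptor of red cells and vessels, of -6.152 (SE 13.73), and Ccrl2, which binds chemerin, of -8.814 (SE 9.798). The median over the 9 was 0.2693 millionths.

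Of the chemokines themselves, 32 of 34 were measured, 1 was called lower and 0 higher, where 0.606% of all probe sets were called lower and 0.129% higher, the shares that stand beside each list of genes here. The lists were chosen with earlier results of these data known, so their counts of calls are not independent evidence. Ccl5, a ligand of Ccr1 made by T and NK cells and platelets, had 7.860601, 7.872651 and 7.891254 in MCAO rats 1 to 3, against 7.877834, 7.89187 and 7.877511 in sham rats 1 to 3. MCAO rats 1 and 2 were below all sham rats and MCAO rat 3 lay at the level of sham rat 2, with a difference of -7570 millionths (SE 9498, FDR 0.0105). It was not called without sham rat 1 or without sham rat 3, where 0 chemokines were. Ccl6, known in rodents as a Ccr1 ligand, had an FDR of 0.0507 for a higher value and 0.111 for a lower one, with 8.162881, 8.217073 and 8.299856 in MCAO rats 1 to 3, against 8.200798, 8.232093 and 8.206286 in sham rats 1 to 3. It had the order of Ccr1 at its ends, with MCAO rat 1 the lowest and MCAO rat 3 the highest. Cxcl12, the ligand of Cxcr4, had a difference of -1.894 millionths (SE 6.82), Ccl2, the ligand of Ccr2, of -10.79 (SE 11.15), and Cx3cl1, the ligand of Cx3cr1, of 5.676 (SE 3.188). For Cxcr2, Cxcl1 had 1.151 (SE 0.8878) and Cxcl2 2.405 (SE 3.159). Cxcl13, for Cxcr5, had 3.475 (SE 3.423), and Ccl20, for Ccr6, 1.484 (SE 2.179). For Cxcr3, Cxcl9, Cxcl10 and Cxcl11 had 2.744, 0.3887 and 2.278 (SE 2.953, 0.9093 and 1.016). Of the 32, MCAO rats lay wholly below sham rats at 3 and wholly above at 2 (Cxcl3 and Cx3cl1), beside 3.6% and 4.82% of all probe sets. Pf4 and Ppbp, chemokines of platelet granules, had differences of 197.6 (SE 98.65) and 205 millionths (SE 176).

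Of genes that carry the signal of these receptors, 34 of 41 were measured, 7 were called lower and 0 higher. Of the 7, Gna12, Gng12, Prkcb, Akt2, Rhoh and Myl12b belong to a pathway list that the study drew from these same rats, and the list used here was made with that known, so neither the count, beside 0.606% of all probe sets called lower, nor the direction is independent evidence. Gng12, a G protein gamma subunit, had 6.431843, 6.425098 and 6.422818 in MCAO rats 1 to 3, against 6.430507, 6.428222 and 6.443684 in sham rats 1 to 3, a difference of -7551 millionths (SE 5201, FDR 0.00776). MCAO rat 1 lay above sham rats 1 and 2, and sham rat 3 was the highest. Akt2, a kinase downstream of phosphoinositide 3-kinase, had a difference of -1391 millionths (SE 527.7, FDR 0.0244), Gna12, a G protein alpha subunit, of -884.4 (SE 393.4, FDR 0.0441), and Rhoh, a signalling protein of blood cells, of -1301 (SE 686.3, FDR 0.0412). In these 3 the MCAO rats all lay under the sham rats (exact permutation p = 0.1 each, as low as 3 against 3 can go). Of the 34 signalling genes, MCAO rats lay wholly below sham rats at 5 and wholly above at 1, beside 3.6% and 4.82% of all probe sets. Gnb1 and Elmo1 were the others below and Pak1 the one above, and none of them was called. Prkcb, a protein kinase C, Cdc42, which directs cell polarity, and Myl12b, a myosin light chain, were the others called, with differences of -3582, -1791 and -1537 millionths and overlapping groups.

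The subunit of Gi that chemokine receptors use most in leukocytes, Gnai2, had a difference of -213 millionths (SE 625.8, FDR 0.696). Rac2, the Rac of blood cells, had -4410 (SE 4659, FDR 0.0719). The number of signalling genes called was 0 without sham rat 1 or sham rat 3, 1 without sham rat 2, 4 without MCAO rat 2, 6 without MCAO rat 1 and 9 without MCAO rat 3.

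Of 12 measured genes that switch the receptors off, 1 was called lower and 0 higher. Grk6, a kinase that phosphorylates active receptors, had 7.879606, 7.886631 and 7.891928 in MCAO rats 1 to 3, against 7.887922, 7.891771 and 7.892035 in sham rats 1 to 3 (-4521 millionths, SE 3583, FDR 0.0387). The groups overlapped through sham rats 1 and 2, and MCAO rat 1 was the lowest, as at Cxcr4. Grk6 was not called without MCAO rat 1, MCAO rat 2, sham rat 1 or sham rat 2, where 0 of the 12 were. Rgs18, a regulator of G protein signaling in platelets, had 621 millionths (SE 935.8), and the arrestins Arrb1 and Arrb2 had -5.233 (SE 4.227) and -5.423 (SE 6.357).

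Of 8 measured receptors for other attractants, S1pr1 was called lower and 0 higher. S1pr1 also stands in a pathway list that the study drew from these same rats, so its call is not independent evidence. S1pr1, by which lymphocytes leave lymph nodes, had 6.69084, 6.699219 and 6.698999 in MCAO rats 1 to 3, against 6.697567, 6.702003 and 6.700911 in sham rats 1 to 3 (-3808 millionths, SE 2882, FDR 0.0430). Its rats stood as those of Cxcr4 at 1373661_a_at, with MCAO rat 1 the lowest, sham rat 1 next and sham rat 2 the highest. It was not called without MCAO rat 1 or without any 1 of the sham rats, where 0 of the 8 were. C5ar1, the complement C5a receptor of neutrophils, had 1450 millionths (SE 2943).

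The genes most like each receptor over the 6 rats were taken at its brightest probe set. For Cxcr4 they were Mier1 (Pearson's r = 0.9986) and Arfip1 (0.9983), and 354 probe sets had an r over 0.95 with it. For Ccr1 they were Gk, a glycerol kinase (0.9952), and Vwf, von Willebrand factor (0.993), for Cxcr2 Lbp, the lipopolysaccharide binding protein (0.992), and Ifngr2, a chain of the interferon gamma receptor (0.9912), and for Ccr2 Cebpa, a transcription factor of myeloid cells (0.991), and Rragc (0.9909). For Cxcr3 they were Vps41 (0.9993) and Zfp592 (0.9938), and for Cxcr5 Tnfrsf4, which is OX40, a receptor on T cells (0.9967), and St6galnac4 (0.9964). For Ccr6 they were Arhgap4 (0.9966) and Txndc16 (0.9896), and for Cx3cr1 Sox4 (0.983) and Pcgf3 (0.9795). Between 14 probe sets (Cx3cr1) and 354 (Cxcr4) reached an r over 0.95, among the 20826 with 1 gene symbol. The genes named were picked as the highest of these, and the values are a description over 6 rats only.

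**Figure D4:**
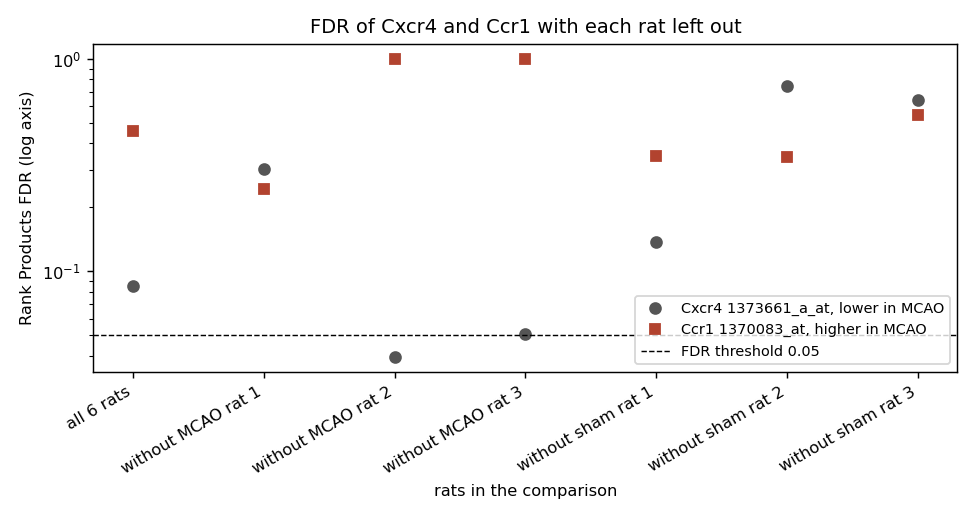
FDR by Rank Products (y axis, logarithmic) of Cxcr4 at 1373661_a_at for a lower value in the MCAO group (circles) and of Ccr1 for a higher value (squares), with all 6 rats and with each rat left out (x axis). Cxcr4 passes the threshold of 0.05 (dashed) only without MCAO rat 2 (0.0397), and Ccr1 lies between 0.245 and 1 throughout.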

How the data were processed

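Whole-blood RNA of 3 MCAO and 3 sham rats was hybridised to Affymetrix GeneChip rat whole-genome arrays. The log2 values were deposited by the authors after DFW (Distribution Free Weighted) normalization of the CEL files over the 6 arrays in R, with no filter stated, and log base and centring are not given in the sources used here (log2 was taken from the range of 4.93 to 14.43). DFW contracts differences unequally between probe sets, and this affects which of them take the extreme ranks in Rank Products. The number of arrays limits the precision, and no 2 arrays held identical values.

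The 57 control probe sets were left out. Rank Products (2 unpaired classes, 100 permutations within arrays) was written in Python 3.11.15 (numpy 2.4.6, pandas 2.3.3), and limma 3.58.1 in R 4.3.3 gave differences, standard errors, 95% intervals and Benjamini-Hochberg adjusted p values. Permutation tests were exact and two-sided, over every division of the 6 rats into 3 and 3. Both methods were run on simulated data. The simulation for limma used the SDs within groups of these data. In that for Rank Products all probe sets had the same SD, unlike here, so it does not show how its FDR behaves on these values. Symbols came from the array annotation, updated by gene ID, where 20826 probe sets had 1 symbol, 436 several and 9780 none. A gene with several probe sets was read at its brightest one for the lists. Named genes were the receptors, called list members, otherwise those with the largest differences, and the 2 most correlated genes per receptor. Ligands of the receptors, Gnai2, Rac2, the arrestins and C5ar1 were named for their roles after the values were seen. Members and lists were chosen with earlier results of these data known.

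No pairing of same-numbered rats is stated. Their deviations gave r of 0.215, 0.04 and 0.063 at unit SD, where differently numbered rats gave -0.238 to 0.174. On the deposited scale same-numbered rats gave -0.419, -0.851 and -0.899, and the others -0.833 to 0.931. The alternatives were limma, an FDR of 0.01, the brighter 50% of probe sets, the control probe sets included, quantile normalization, median centring, an intensity trend, a replicate block, all probe sets per receptor, and omission of each rat in turn.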

Additional observations from a re-analysis of the deposited data

How the results depend on the processing

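No receptor probe set was called under limma, an FDR of 0.01, the brighter 50% of probe sets, inclusion of the control probe sets, quantile normalization or centring, and between 0 and 1 were called with a rat left out. Groups not overlapping were 1 of the 11 with arrays centred, beside 26.8% of all probe sets, and 0 to 3 of the 11 with a rat left out, beside 14.9% to 23.7%. The replicate block and the intensity trend left each difference as it was (Cxcr4 at 1373661_a_at -2090 millionths) and called none, no pairing by rat number being stated, and the lowest adjusted p of a receptor over the alternatives was 0.239. Quantile normalization turned the sign of Ccr2 (-6.13 millionths), Cx3cr1 (27.31) and Cxcr5 at 1369911_at (14.22), and centring that of Cx3cr1 (28.38), Cxcr3 (16.84), Cxcr5 at 1369911_at (27.68) and Ccr6 (23.98). The cause was not tested, except that centring added 29.78 to the difference of every probe set. The myeloid median was 73.83 after centring, and the lymphoid one was -49 after quantile normalization and 23.98 after centring. With a rat left out, differences ran from -94.5 to 1454 for Ccr1, -26.84 to 68.98 for Ccr2, -11.07 to 5.044 for Cx3cr1, -116.7 to 27.92 for Cxcr4 at 1370097_a_at and -253.9 to 37.99 at 1389244_x_at, the myeloid median from -12.51 to 77.41 and the lymphoid one from -8.156 to -2.791.

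By limma 0 genes of any list were called. At an FDR of 0.01 the count was 1 for signalling genes and 0 for chemokines, desensitisation genes, other attractant receptors and neutrophil, monocyte, T, NK and erythroid markers. Among the brighter probe sets it was 2 for signalling, 1 for T cell markers, and 0 for desensitisation, other attractant receptors, neutrophil and monocyte markers. After quantile normalization it was 2 for signalling and 0 for desensitisation, other attractant receptors, neutrophil, T cell and platelet markers. With controls kept 2 chemokines were called. With a rat left out the counts were 0 to 9 (signalling), 0 to 2 (chemokines, erythroid and platelet markers), 0 to 1 (desensitisation and other attractant receptors), 0 to 4 (neutrophil, monocyte and T cell markers) and 0 to 3 (B and NK cell markers).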
